A study of Mus musculus with 8 samples.

Results

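The 10 genes described here mark lymphatic vessels or govern their growth: Lyve1, Prox1, Mmrn1, Flt4, Pdpn, Nrp2, Vegfc, Angpt2, Tek and Pkhd1l1. They were found by symbol among the 32285 genes of the features tables. All 10 had a unique molecular identifier (UMI, a count of 1 captured transcript) in the tissue and Visium libraries, and 7 of 10 had one in each organoid library. The series held 8 mouse libraries of strain C57BL/6, and its title concerns exchange between lymphatic vessels and intestinal stem cells. Small intestinal organoids at passage 1 were grown alone (control) or in coculture with a partner that the labels do not name. Epithelial cells were sorted from 16 pooled wells per culture and gave 1 single-cell library each. Small and large intestine were digested and sorted separately, with 1 single-cell library each. That sort enriched LGR5+ stem cells and lymphatic endothelial cells gated as CD31+ PDPN+ LYVE1+, and used C57BL/6 mice and mice carrying Lgr5-eGFP-ires-CreERT2 on that background, a line in which Lgr5-expressing cells carry a green fluorescent protein and an inducible Cre. The last 4 libraries were Visium slides of 10 µm cryosections, with 2 sections per tissue that were technical duplicates.

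Lymphatic vessels of the gut drain fluid, carry dietary fat from the villi and guide immune cells. Their endothelial cells are specified by the transcription factor PROX1 and grow in response to VEGF-C, which binds the receptor VEGFR3 (encoded by Flt4) with neuropilin 2 (Nrp2) as coreceptor. Angiopoietin 2 (Angpt2) acts on the receptor TIE2 (Tek), which blood vessels also carry. LYVE1 is a hyaluronan receptor, podoplanin (Pdpn) a surface glycoprotein that binds CLEC2 on platelets, and multimerin 1 (Mmrn1) a secreted glycoprotein. LYVE1 and PDPN protein were part of the sort gate, so the levels of Lyve1 and Pdpn in sorted lymphatic cells are a description of cells chosen for them.

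The 250 bases before the annotated gene start are shown for 5 members with unlike patterns across cells: Mmrn1 and Flt4, high in lymphatic cells, Pdpn, shared with fibroblasts, Prox1, shared with epithelial cells, and Vegfc, a ligand found outside lymphatic cells. The sequences are from RefSeq on GRCm38.p6, 5′ to 3′ on the strand of the gene, with motif matches in capitals. They cover chr6:60944067-60944316 (+ strand) for Mmrn1, chr4:143299565-143299814 (- strand) for Pdpn, chr1:190170828-190171077 (- strand) for Prox1, chr11:49609429-49609678 (+ strand) for Flt4 and chr8:54077282-54077531 (+ strand) for Vegfc.
Mmrn1: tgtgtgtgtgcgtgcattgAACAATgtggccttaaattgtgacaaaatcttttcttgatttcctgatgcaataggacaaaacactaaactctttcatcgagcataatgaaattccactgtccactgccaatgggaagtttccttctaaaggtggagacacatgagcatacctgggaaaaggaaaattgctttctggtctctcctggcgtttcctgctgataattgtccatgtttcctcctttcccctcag
Pdpn: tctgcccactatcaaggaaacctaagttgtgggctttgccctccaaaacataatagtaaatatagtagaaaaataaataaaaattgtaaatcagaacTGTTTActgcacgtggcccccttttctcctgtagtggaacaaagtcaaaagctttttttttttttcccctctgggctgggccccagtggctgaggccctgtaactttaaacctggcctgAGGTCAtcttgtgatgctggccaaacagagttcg
Prox1: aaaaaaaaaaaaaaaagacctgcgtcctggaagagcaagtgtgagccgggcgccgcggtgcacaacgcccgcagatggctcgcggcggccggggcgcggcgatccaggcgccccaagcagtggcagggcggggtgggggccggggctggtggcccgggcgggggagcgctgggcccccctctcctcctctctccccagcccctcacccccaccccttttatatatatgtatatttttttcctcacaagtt
Flt4: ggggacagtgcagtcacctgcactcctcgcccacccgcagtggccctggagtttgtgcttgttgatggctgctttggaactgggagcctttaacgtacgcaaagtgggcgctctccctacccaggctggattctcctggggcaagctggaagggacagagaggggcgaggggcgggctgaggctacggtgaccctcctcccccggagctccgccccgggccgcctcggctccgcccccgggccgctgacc
Vegfc: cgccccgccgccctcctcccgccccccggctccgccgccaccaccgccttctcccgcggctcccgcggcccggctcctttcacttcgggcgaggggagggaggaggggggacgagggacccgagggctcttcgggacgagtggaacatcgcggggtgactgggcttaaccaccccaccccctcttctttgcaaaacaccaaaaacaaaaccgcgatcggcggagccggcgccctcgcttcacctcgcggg

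The windows were searched on both strands for short motifs of factor families with endothelial roles. The nuclear receptor motif AGGTCA was held by 14.0% of the 32851 promoters of that length. The SOX motif was searched as AACAAT and was in 9.4%. The ETS motif, CGGAAG, was in 13.6% of the promoters. For GATA factors the letters were GATAAG, found in 6.5%. Forkhead factors were represented by TGTTTA, found in 12.0%. No motif holds another. Mmrn1 held the SOX motif, and Pdpn held those of nuclear receptors and forkhead factors. None of the 5 motifs was found in the Prox1, Flt4 or Vegfc windows, nor in that of Nrp2. GC content split the windows into low (Mmrn1 at 42.4%, Pdpn at 43.2%) and high (Prox1 at 64.8%, Flt4 at 68.4%, Vegfc at 71.6%, Nrp2 at 72.4%). A match describes letters only, and binding was not measured. The table held a promoter for 7 of the 10 members, of which 6 ended at the gene start. Lyve1, Angpt2 and Pkhd1l1 had no entry.

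Levels are given as CPM, for which a gene’s UMIs are divided by all UMIs of the cells that were summed and multiplied by 1000000. Their 95% intervals cover counting error only. With 1 library per tissue and culture, no difference between tissues or cultures has a replicate check, and no test was run. The deposited libraries held between 24356162 and 142501907 UMIs. Once filtered, 2695 cells of the small and 5882 of the large intestine were kept, with 538 control and 1028 cocultured organoid cells and 2094 to 2571 spots per section. In the small intestinal library 5497 of 8842 barcodes were over the mitochondrial limit of 20%, against 2060 of 8646 in the large one. The tissue libraries shared 25 barcodes, and leaving out the cells that carried them changed none of the counts of members. Only 1 cell later named lymphatic-like and 0 named blood endothelial-like carried such a barcode, so the endothelial counts could hardly change.

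Cell classes were rebuilt by clustering without the 10 genes and named from marker lists that did not hold them. Names made this way carry the ending "-like". The lymphatic-like class had 349 cells (12.9% of kept cells) in the small and 205 (3.49%) in the large intestine. All 12 lymphatic markers were detected in it, summing to 9657 and 17547 CPM. In the 39 and 87 blood endothelial-like cells the same list summed to 268 and 324 CPM, and the defining genes Reln, Tbx1 and Sema3d were at 0 in both tissues. All 14 blood endothelial markers were found in the blood endothelial-like class (13606 and 16311 CPM), and 11 and 9 of 14 in the lymphatic-like class (5156 and 3000.1 CPM). Paneth cell markers summed to 7745 CPM in small intestinal lymphatic-like cells and to 33.6 CPM in large intestinal ones. In blood endothelial-like cells they summed to 7199 and 5.03 CPM. The part of these markers in the values below was not tested.

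The identity genes separated lymphatic-like from blood endothelial-like cells in both tissues. Of the 9 members with at least 20 UMIs over both classes, 7 were at least 2-fold higher in small intestinal lymphatic-like cells, where 11.6% of all genes counted were. The same number, 7 of 9, was higher in the large intestine, where 13.7% of genes were. The sets differed in 1 gene each: Angpt2 passed 2-fold in the small and Pkhd1l1 in the large intestine. The median log2 ratio of the counted members was 4.10 in the small and 4.65 in the large intestine, against 0.08 and 0.03 over all genes counted. Because counts under 3 were set to 3, these medians are partly lower bounds.

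Prox1 (ENSMUSG00000010175, chr1:190118035-190170827), the master transcription factor of lymphatic identity, had 983 UMIs or 794 CPM (interval 745 to 846) in small intestinal lymphatic-like cells. It had 389 UMIs or 689 CPM (622 to 760.5) in the large intestine. No Prox1 UMI was seen in blood endothelial-like cells of either tissue, so its level was at least 38.5-fold higher in lymphatic-like cells of the small and at least 91.3-fold higher in those of the large intestine. Such bounds take 0 as 3 UMIs over the class and leave out counting error, with which the log2 ratio was at least 4.96 in the small and 6.21 in the large intestine. These bounds rest on 39 and 87 blood endothelial-like cells.

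Mmrn1 (ENSMUSG00000054641, chr6:60944317-60989378) had 5540.4 CPM (6857 UMIs) and 4995 CPM (2822 UMIs) in lymphatic-like cells and 0 UMIs in blood endothelial-like cells. The bounds were at least 268-fold higher in the small and at least 662-fold higher in the large intestine. Lyve1 (ENSMUSG00000030787, chr7:110850607-110862953) had 4344 CPM (5376 UMIs) against 6.88 CPM (1 UMI) in the small intestine, a log2 ratio of 9.30 with a counting interval of 6.82 to 14.61 for the UMIs as counted. With the 1 UMI set to 3, as in the calls and medians, it was 7.72. In the large intestine it had 5329 CPM (3011 UMIs) against 0 UMIs, at least 707-fold higher. Of this pair, Mmrn1 was not part of the gate. Pdpn (ENSMUSG00000028583, chr4:143267409-143299564) had 254 CPM (314 UMIs) and 458 CPM (259 UMIs) in lymphatic-like cells. It had none in blood endothelial-like cells, at least 12.3-fold and at least 60.8-fold higher.

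The growth factor receptors were shared by both vessel types at unequal levels. Flt4 (ENSMUSG00000020357, chr11:49609679-49652739) had 1640.2 CPM in lymphatic-like against 68.8 CPM (10 UMIs) in blood endothelial-like cells of the small intestine, a log2 ratio of 4.57 (3.69 to 5.64). Large intestinal levels were 989 and 67.9 CPM (27 UMIs), a log2 ratio of 3.87 (3.31 to 4.48). The level in blood endothelial-like cells was close to the same in both tissues. Nrp2 (ENSMUSG00000025969, chr1:62703317-62818692) had 1374 against 206 CPM in the small intestine, a log2 ratio of 2.73 (2.22 to 3.31). The large intestinal levels were 692 against 168 CPM, a log2 ratio of 2.04 (1.66 to 2.43).

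Tek (ENSMUSG00000006386, chr4:94739086-94874976), the angiopoietin receptor, went the other way. It had 113 CPM (140 UMIs) in lymphatic-like and 255 CPM (37 UMIs) in blood endothelial-like cells of the small intestine, a log2 ratio of -1.17 (-1.70 to -0.61). Of the 9 members counted it was the 1 called lower there, where 10.0% of genes were. Large intestinal cells had 115 and 209 CPM, a log2 ratio of -0.86 (-1.35 to -0.37). That ratio did not reach 2-fold, and 0 of the 9 members counted were called lower there, where 11.8% of genes were. Vegfc, described next, was lower in lymphatic-like cells of both tissues but had under 20 UMIs, the minimum for counting, and so is in neither count.

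Vegfc and Angpt2, the ligands among the members, lay in different vessel classes in the small intestine. Vegfc (ENSMUSG00000031520, chr8:54077532-54186454) had 0 UMIs in the lymphatic-like cells of both tissues. At these depths the upper end of the 95% interval was 2.98 CPM in the small and 6.53 CPM in the large intestine. Blood endothelial-like cells had 13 Vegfc UMIs (89.5 CPM) and 16 (40.2 CPM). With the 0 set to 3 UMIs Vegfc was 36.9-fold and 7.58-fold lower in lymphatic-like cells, and the counting intervals of these log2 ratios (-5.21 and -2.92) ended at -4.70 and -2.45. Angpt2 (ENSMUSG00000031465, chr8:18690263-18741562), by contrast, had 165 UMIs (133 CPM) in small intestinal lymphatic-like cells and 1 UMI (6.88 CPM) in blood endothelial-like cells, with a log2 ratio of 4.28 as counted (counting interval 1.78 to 9.59) and of 2.69 with the 1 UMI set to 3. For the large intestine the levels were 31.9 CPM (18 UMIs) and 20.1 CPM (8 UMIs), and the interval of the log2 ratio of 0.66 (-0.61 to 2.07) included 0.

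Pkhd1l1 (ENSMUSG00000038725, chr15:44457396-44601376), which encodes a large membrane protein related to fibrocystin, had 107 UMIs (189 CPM) in large intestinal lymphatic-like cells and 0 in blood endothelial-like cells, at least 25.1-fold higher. Its small intestinal counts were 20 UMIs (16.2 CPM) and 0, too few for a ratio at the depth of the 39 blood endothelial-like cells.

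**Figure D1:**
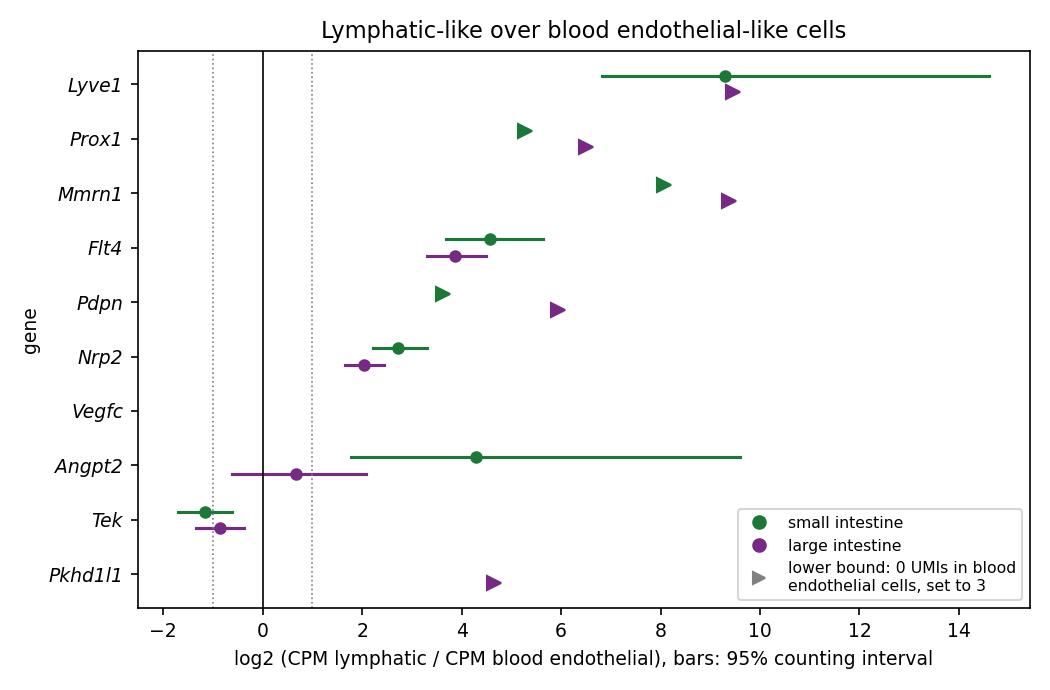
Log2 ratio of the CPM in lymphatic-like over blood endothelial-like cells (x axis) for each gene (y axis), small intestine in green and large intestine in purple; points with bars give the ratio and its 95% counting interval, triangles give lower bounds where blood endothelial-like cells had 0 UMIs, and dotted lines mark 2-fold. Mmrn1, Lyve1, Prox1, Pdpn, Flt4 and Nrp2 lie to the right in both tissues and Tek to the left. Vegfc has no point because it had under 20 UMIs, the minimum for counting, and Pkhd1l1 has a point for the large intestine.

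Among single lymphatic-like cells the identity genes were found together. Each cell was thinned to 2000 UMIs, which kept 258 small and 115 large intestinal cells. Mmrn1 was seen in 100% and 99.1% of these cells and Lyve1 in 99.6% and 99.1%. Prox1 was seen in 77.1% (71.5% to 82.1%) and 68.7% (59.4% to 77.0%), Flt4 in 96.5% of small and 87.0% of large intestinal cells, and Nrp2 in 89.9% and 63.5%. The other members were sparser. Angpt2 was seen in 20.2% (15.4% to 25.6%) and 6.09% (2.48% to 12.1%), Tek in 21.7% and 20.9%, Pdpn in 38.8% and 53.0%, and Pkhd1l1 in 3.49% (1.61% to 6.52%) and 28.7% (20.6% to 37.9%). At least 3 of the 10 genes were seen in 258 of 258 and 113 of 115 lymphatic-like cells, in 1 of 30 and 3 of 72 blood endothelial-like cells, and in 0 of 273 and 0 of 107 B-like cells. Macrophage- or monocyte-like cells had 4 of 89 (4.49%) and 3 of 178, and fibroblast-like cells 0 of 32 and 4 of 282. B-like cells should lack these genes and had median depths before thinning of 2802 and 2644 UMIs, against 3370 and 2292 in lymphatic-like cells. Their highest share was 2.20%, for Mmrn1 in the small intestine.

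The small intestinal lymphatic-like class had 2 clusters, of 263 cells led by Ccl21a (median 4066 UMIs) and of 86 cells led by Dmtn and Sema3d (median 1293.5 UMIs). None of the 8 members with a ratio differed between them by 2-fold, a size reached by 13.3% of genes counted as higher and 5.99% as lower in the Ccl21a-led cluster. Mmrn1 had 5672 CPM in the Ccl21a-led and 4369 CPM in the Sema3d-led cluster, and Lyve1 4509 and 2876 CPM. Prox1 was close to even, with 791 and 823 CPM. Pkhd1l1, with 19 and 1 UMIs, was too low to place, with a log2 ratio as counted of 1.10 and an interval of -1.56 to 6.47. Of the other genes of the pathway list, 9 were at least 2-fold higher in the Ccl21a-led cluster and 0 lower, of 30 counted. These 9 include 2 of the markers that named the class, Ccl21a and Tbx1.

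The pathway list held 41 other genes of lymphatic growth and identity. In the small intestine 32 had at least 20 UMIs, of which 11 were at least 2-fold higher and 7 lower in lymphatic-like than in blood endothelial-like cells, where 11.6% of all genes counted were higher and 10.0% lower. In the large intestine the counts were 16 higher and 5 lower of 31, beside 13.7% and 11.8% of all genes. Without the genes that also named the classes they were 7 higher and 6 lower of 26, and 12 higher and 3 lower of 25. Lymphatic transcription factors gave 3 higher and 2 lower of 8 in the small and 5 higher and 1 lower of 8 in the large intestine. Nr2f2, which encodes COUP-TFII, a partner of PROX1, had 977 against 6.88 CPM and 763 against 101 CPM. Gata2, a factor of blood and lymphatic endothelium, was lower in lymphatic-like cells at 19.4 against 186 CPM and 17.7 against 133 CPM. The receptors Flt1 and Nrp1, which bind VEGF-A and related ligands in blood vessels, were lower. Flt1 and Kdr are among the markers that named the blood endothelial-like class, so their levels are given as a description. Flt1 had 4.04 against 2278 CPM in the small intestine and 0 UMIs against 2283 CPM in the large, at least 429.9-fold lower there. Nrp1 had 4.04 against 1169.9 CPM and 0 UMIs against 1177 CPM. The pair of coreceptors thus had opposite directions, with Nrp2 higher and Nrp1 lower in lymphatic-like cells of both tissues. Kdr, the main VEGF-A receptor, had 1026 against 1273 CPM in the small and 627 against 1420.4 CPM in the large intestine. Itga9, an integrin subunit of lymphatic valves, had 222 against 13.8 CPM and 136 against 12.6 CPM.

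Over all classes of at least 20 cells, lymphatic-like cells had the highest level of 7 members in the small and 8 in the large intestine. Blood endothelial-like cells had the highest Tek in both tissues and the highest Vegfc in the small intestine. Pkhd1l1 in the small intestine was at 16.7 CPM in fibroblast-like cells, from 4 UMIs in 1 cell, and at 16.2 CPM in lymphatic-like cells, which did not differ beyond counting error. The map of levels by class shows where each member was found outside lymphatic-like cells.

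**Figure D2:**
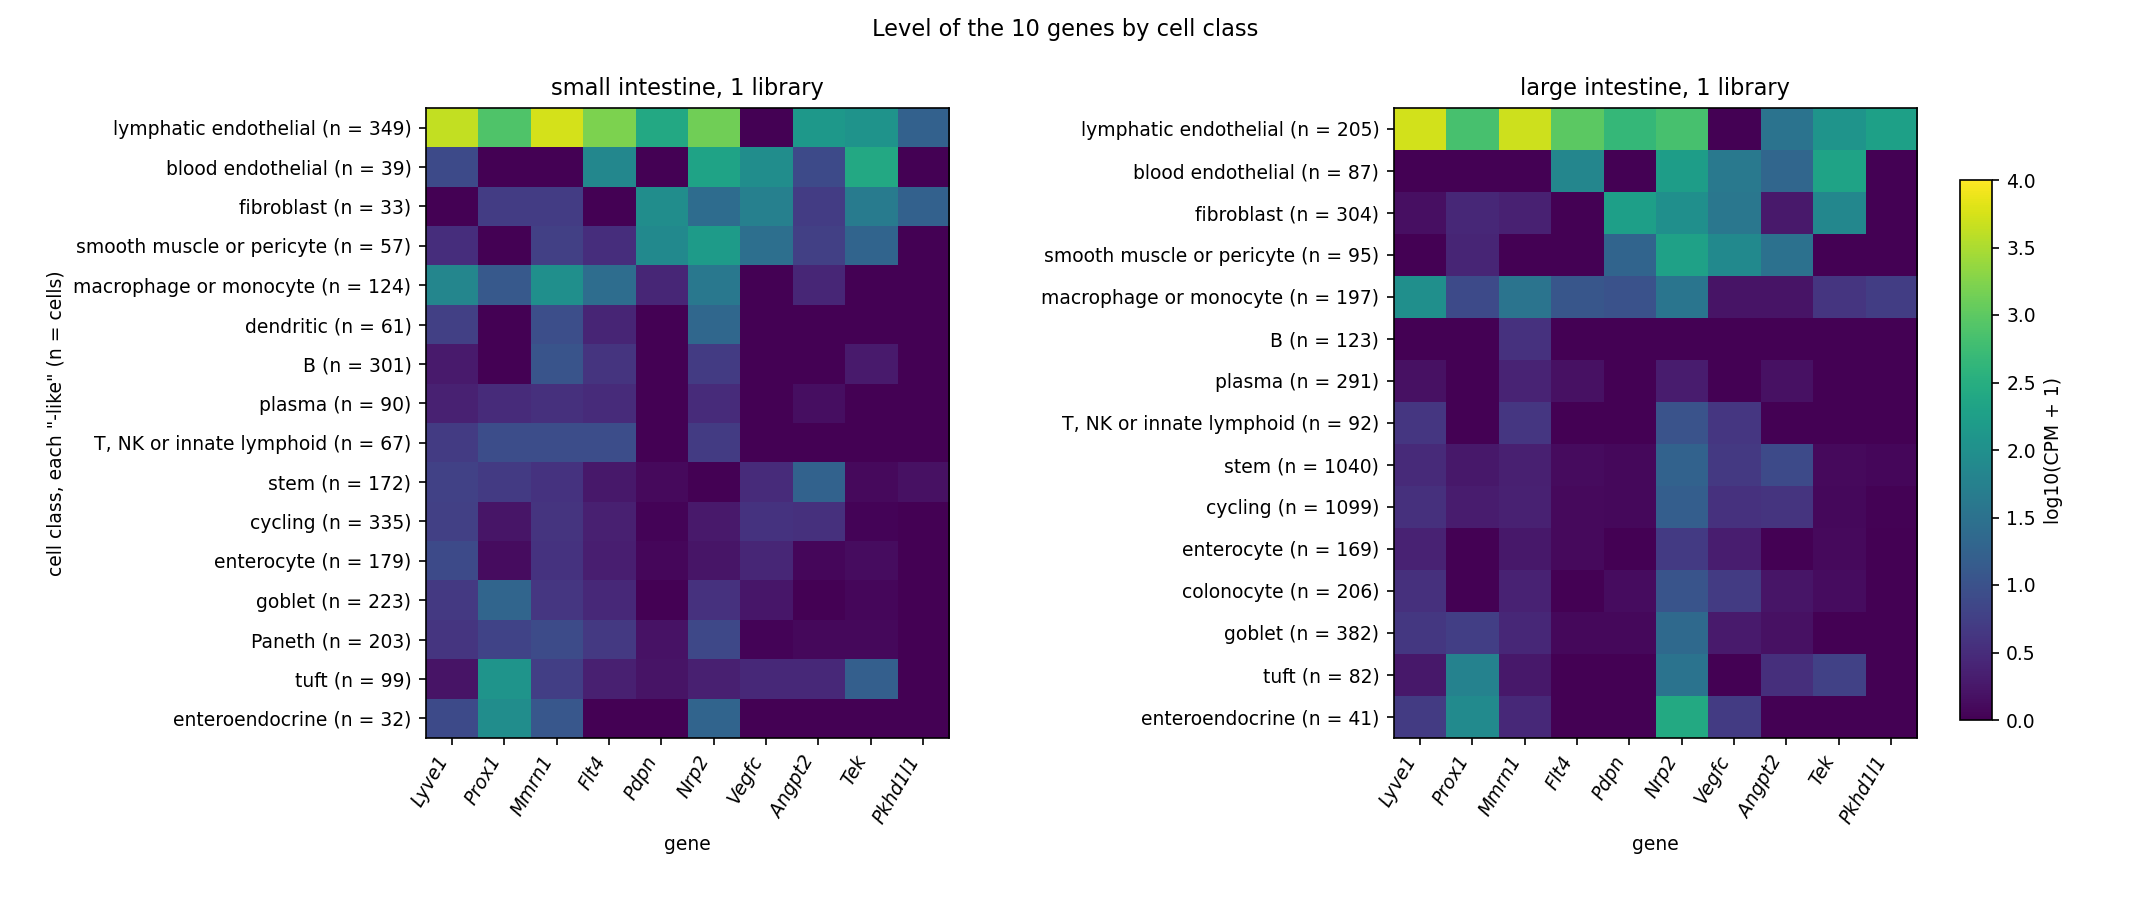
Colour gives log10(CPM + 1) of each of the 10 genes (x axis) in each cell class (y axis, with its number of cells) of the small and large intestinal library. Lyve1, Prox1, Mmrn1, Flt4, Pdpn and Nrp2 are brightest in the top row of lymphatic-like cells, Vegfc is dark there, and Prox1 also stands out in tuft-like and enteroendocrine-like cells.

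Lyve1 and Mmrn1 had macrophage- or monocyte-like cells as their next class. Lyve1 had 67.1 CPM (39 UMIs, interval 47.7 to 91.7) there in the small and 96.1 CPM (154 UMIs, 81.6 to 113) in the large intestine. Mmrn1 had 96.4 CPM (56 UMIs) and 33.7 CPM (54 UMIs). Lyve1 is also known from a subset of tissue macrophages. Lyve1 made 41.1% (31.1% to 51.6%) of the summed Lyve1 and Mmrn1 UMIs in the small intestinal macrophage- or monocyte-like cells, against 43.9% (43.1% to 44.8%) in lymphatic-like cells. The large intestinal shares were 74.0% (67.5% to 79.9%) and 51.6%. There the Lyve1 UMIs lay in 30 of 197 cells.

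Pdpn was next highest in fibroblast-like cells, the stromal class known to carry podoplanin. It had 91.6 CPM there in the small and 181 CPM (416 UMIs) in the large intestine, where 65.1% of 304 cells had a UMI before thinning. Smooth muscle- or pericyte-like cells had 77.7 and 18.8 CPM. In the small intestine they did not differ from fibroblast-like cells beyond counting error (log2 ratio of fibroblast-like over these cells 0.24, -0.61 to 1.06). Nrp2 had 155 CPM (120.2 to 198) in smooth muscle- or pericyte-like cells of the small intestine, and 197 CPM (164 to 235) in those of the large. Small intestinal blood endothelial-like cells had 206 CPM of Nrp2, not above the smooth muscle- or pericyte-like cells beyond counting error (log2 ratio 0.41, -0.26 to 1.05). In the large intestine enteroendocrine-like cells came next after lymphatic-like cells, at 272 CPM (229 to 321). Fibroblast-like cells also held Tek, at 45.8 CPM (small) and 69.8 CPM (large intestine). Of the large intestinal class, 156 of the 160 Tek UMIs lay in 1 of its clusters, led by Pcolce2, C7 and Inmt, at 109 CPM against 4.66 CPM in the cluster led by Edil3 and Ccn2.

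The next question was which sorted cells held the ligands. Vegfc was found in stromal and blood endothelial-like cells. Small intestinal blood endothelial-like cells had 89.5 CPM (47.6 to 153), fibroblast-like cells 54.1 CPM (13 UMIs, 28.8 to 92.6) and smooth muscle- or pericyte-like cells 28.3 CPM (12 UMIs, 14.6 to 49.4), and neighbours in this order did not differ beyond counting error. Large intestinal smooth muscle- or pericyte-like cells had 78.3 CPM (50 UMIs, 58.1 to 103), blood endothelial-like cells 40.2 CPM (23.0 to 65.3) and fibroblast-like cells 37.9 CPM (87 UMIs, 30.4 to 46.8). The first of these was above the second by a log2 ratio of 0.96 (0.12 to 1.87), and the other pair did not differ beyond counting error. Macrophage- or monocyte-like cells had 0 and 1 Vegfc UMIs. Epithelial levels were low, at most 4.03 CPM in the large intestine, in colonocyte-like cells.

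Vegfd, the second ligand of VEGFR3, was highest in fibroblast-like cells, at 91.6 CPM (22 UMIs) in the small and 73.7 CPM (169 UMIs) in the large intestine. Its level was 28.3 CPM in the small and 3.13 CPM in the large intestine in smooth muscle- or pericyte-like cells. Vegfa had 47.7 CPM in enteroendocrine-like and 43.8 CPM in tuft-like cells of the small intestine, and 25.2 and 23.5 CPM in those of the large intestine, beside 25.7 CPM in its fibroblast-like cells. Angpt1, the partner ligand of TIE2, was low everywhere, with fibroblast-like cells at 25.0 CPM (6 UMIs) and 8.72 CPM (20 UMIs). Lymphatic-like cells had 13.7 CPM (17 UMIs) of Angpt1 in the small intestine.

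Angpt2 had stem-like cells as its second class in the small intestine at 17.2 CPM (65 UMIs, 13.3 to 22.0). Large intestinal lymphatic-like cells (31.9 CPM), smooth muscle- or pericyte-like cells (29.8 CPM) and blood endothelial-like cells (20.1 CPM) did not differ beyond counting error, and stem-like cells had 6.86 CPM (177 UMIs, 5.89 to 7.95). Angpt2 overlaps Mcph1 in the annotation, and whether strand was used in counting is not given in the sources used here. Mcph1 had 14.3 and 12.7 CPM in the stem-like cells, 28.5 and 25.5 CPM in cycling-like cells, where Angpt2 was lower than in stem-like cells, and 8.89 and 3.54 CPM in lymphatic-like cells. Prox1 overlaps the antisense gene Prox1os, which had 1 to 4 UMIs in the classes where Prox1 was high. Nrp2 overlaps Gm29083, whose part in the Nrp2 counts was not tested.

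Between the tissues, lymphatic-like cells differed most in Angpt2 and Pkhd1l1. Angpt2 was higher in the small intestine, with a log2 ratio of 2.07 (1.36 to 2.86), and 8.06% of genes counted were at least 2-fold higher there. Pkhd1l1 was lower, with a log2 ratio of -3.55 (-4.32 to -2.85), and 4.92% of genes were at least 2-fold lower. The shares of cells given above went the same way, with Angpt2 in 20.2% and 6.09% and Pkhd1l1 in 3.49% and 28.7%. The other 7 counted members stayed within 2-fold. The receptors Nrp2 at 0.99 (0.83 to 1.15) and Flt4 at 0.73 (0.59 to 0.87) were nearer to it than Prox1 at 0.21, Mmrn1 at 0.15 and Tek at -0.02 (-0.46 to 0.42). Pdpn had a log2 ratio of -0.85 (-1.10 to -0.61) and Lyve1 one of -0.30 (-0.36 to -0.23).

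With doublets kept the classes had 354 and 219 lymphatic-like cells. Nrp2 then had a log2 ratio of 1.26, Flt4 1.07 and Pdpn -0.50, and Lyve1 changed sign to 0.09. The large intestinal library lost 306 cells to the doublet filter and the small one 61. Of the pathway list, Cldn11 and Ephb4 were at least 2-fold higher in the small intestine (log2 ratios 2.57 and 1.11), and those lower included Foxc2, Gja4 and Ccl21a (-1.26, -1.18 and -1.71), of 31 counted. Foxc2 and Gja4 are known from lymphatic valves and collecting vessels. In blood endothelial-like cells 1 of 4 members counted was at least 2-fold higher and 0 lower, where 6.43% of genes were higher and 13.0% lower. That member, Vegfc, had a log2 ratio of 1.15 with a counting interval of -0.02 to 2.30, and Tek (0.29), Nrp2 (0.29) and Flt4 (0.02) stayed within 2-fold.

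**Figure D3:**
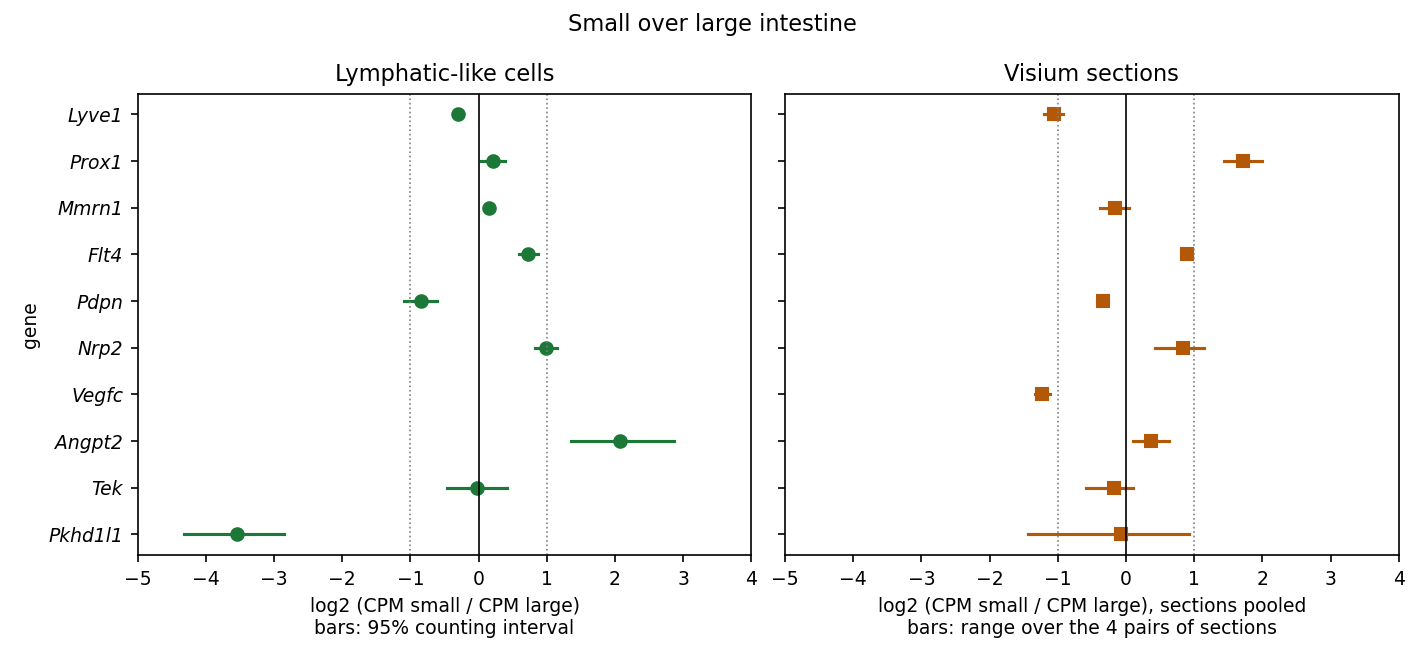
Log2 ratio of the CPM in small over large intestine (x axis) for each gene (y axis), in lymphatic-like cells with 95% counting intervals (left) and in Visium sections pooled by tissue, with bars over the 4 pairs of sections (right); dotted lines mark 2-fold. In lymphatic-like cells Angpt2 lies right of 2-fold and Pkhd1l1 left of it, and in the sections Prox1 lies to the right and Vegfc to the left.

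Prox1 was also found in epithelial classes. Small intestinal tuft-like cells had 116 CPM (183 UMIs, 99.9 to 134), enteroendocrine-like cells 90.9 CPM (40 UMIs, 65.0 to 124) and goblet-like cells 19.5 CPM (101 UMIs, 15.9 to 23.7). Large intestinal enteroendocrine-like cells had 81.5 CPM (42 UMIs, 58.7 to 110.2), tuft-like cells 57.6 CPM (71 UMIs, 45.0 to 72.7) and goblet-like cells 4.51 CPM (43 UMIs). The first pair in each tissue did not differ beyond counting error. Prox1 made 96.3% (92.6% to 98.5%) and 98.6% of the summed Prox1 and Mmrn1 UMIs of the tuft-like cells, and 88.9% and 97.7% of those of the enteroendocrine-like cells. In lymphatic-like cells it made 12.5% (11.8% to 13.3%) in the small and 12.1% (11.0% to 13.3%) in the large intestine. The proportion of Prox1 to Mmrn1 thus differed between these epithelial classes and lymphatic-like cells by more than counting error.

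After thinning to 2000 UMIs, Prox1 was seen in 27.3% (18.8% to 37.1%) of 99 small and 7.89% (2.95% to 16.4%) of 76 large intestinal tuft-like cells. It was seen in 16.7% and 19.5% of enteroendocrine-like cells and in 0 of the B-like cells. Before thinning the tuft-like shares were 77.8% and 51.2%. Tuft-like cells had medians of 16150.0 and 15180.5 UMIs. Summed over the named epithelial classes, Prox1 had 10.9 CPM in the small and 2.71 CPM in the large intestine, a log2 ratio of 2.01 (1.76 to 2.26). The sum mixes classes, with 99 tuft-like cells among 2695 and 82 among 5882 kept cells.

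Epithelial Lyve1 was low in every named class. Its highest classes were enterocyte-like cells at 6.97 CPM (41 UMIs, 5.01 to 9.46) in the small intestine and enteroendocrine-like cells at 3.88 CPM (2 UMIs, 0.470 to 14.0) in the large. These ranks were not beyond counting error. Small intestinal enteroendocrine-like cells had 6.82 CPM (3 UMIs, 1.41 to 19.9) and large intestinal goblet-like cells 3.46 CPM (33 UMIs, 2.38 to 4.86). Over all named epithelial classes it had 4.38 CPM (3.72 to 5.11) and 2.42 CPM (2.08 to 2.79), against 10.9 CPM (9.86 to 12.0) and 2.71 CPM (2.35 to 3.10) for Prox1, so the intervals of these genes overlapped in the large intestine. Lyve1 made 70.7% (57.3% to 81.9%) of the Lyve1 and Mmrn1 UMIs of small intestinal enterocyte-like cells and 30.1% of those of Paneth-like cells, against 43.9% in lymphatic-like cells. After thinning, 3.43% (1.27% to 7.31%) of enterocyte-like cells and 0 of 273 B-like cells had a Lyve1 UMI in the small intestine. No named epithelial class of the large intestine passed 1% after thinning.

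Summed over the named epithelial classes, Nrp2, Angpt2 and Lyve1 had tissue ratios of opposite sign to those in lymphatic-like cells, with intervals that left out 0 in both. With doublets kept, the ratio of Lyve1 in lymphatic-like cells was positive, at 0.09. Tek (1.57 and -0.02) and Pdpn (0.16 and -0.85) also differed in sign, each with 1 interval that included 0. For Angpt2 the sum did not hold within classes. Its log2 ratio was -0.44 (-0.79 to -0.11) over the epithelium but 1.33 (0.90 to 1.75) in stem-like cells, which had 65 and 177 of its 98 and 281 epithelial UMIs, and -0.23 (-0.91 to 0.40) in cycling-like cells. Lyve1 had a log2 ratio of 0.86 (0.54 to 1.17) over the epithelium and 1.35 (0.51 to 2.13) in stem-like cells. In goblet-like cells it was 0.08 (-0.81 to 0.94). Mmrn1 and Flt4, both high in lymphatic-like cells, had epithelial log2 ratios of 1.66 (1.29 to 2.04) and 2.91 (2.16 to 3.73). The part of RNA from lymphatic-like cells in these epithelial values was not tested. Nrp2 had 2.64 CPM in the small and 17.7 CPM in the large intestine, a log2 ratio of -2.74 (-3.06 to -2.45), while in lymphatic-like cells it was higher in the small intestine. Large intestinal enteroendocrine-like cells had 272 CPM, tuft-like cells 32.5 CPM (23.2 to 44.2) and goblet-like cells 22.7 CPM (19.8 to 26.0). Stem-like cells had 17.3 CPM (447 UMIs), against 0 UMIs in small intestinal stem-like cells, where the upper bound was 0.978 CPM. An unnamed cluster of 430 cells led by Atp6v0a4, Ido1 and Mmp7 had 70.7 CPM (879 UMIs). After thinning, 39.0% (24.2% to 55.5%) of the large intestinal enteroendocrine-like cells had an Nrp2 UMI, against 0 of 107 B-like cells. Tuft-like cells held Tek, at 15.2 CPM (24 UMIs) in the small intestine and 4.87 CPM in the large.

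The organoid libraries held sorted epithelial cells, in which Mmrn1, Pdpn, Pkhd1l1, Flt4 and Tek were at or near the limit of detection. Mmrn1, Pdpn and Pkhd1l1 had 0 UMIs in both, where 3 UMIs correspond to 0.0693 and 0.0309 CPM. Flt4 had 2 and 4 UMIs and Tek 3 and 2. Of the 5 members with 20 UMIs, 1 was at least 2-fold higher in the cocultured library and 0 lower, where 2.76% of genes were higher and 5.05% lower. That member was Prox1, with 23 UMIs (0.531 CPM) in control and 111 (1.14 CPM) in cocultured cells, a log2 ratio of 1.11 (0.45 to 1.82). Of these UMIs 11 lay in 5 enteroendocrine-like control cells and 96 in 22 enteroendocrine-like cocultured cells. The share of that class was 0.929% and 2.14% of cells, and the part of this in the Prox1 ratio was not tested. Paneth-like cells had 10 and 11 Prox1 UMIs.

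Vegfc had 42 and 167 UMIs (0.970 and 1.72 CPM), a log2 ratio of 0.83 (0.33 to 1.35). Cocultured enterocyte-like cells had the highest class level of Vegfc, at 2.94 CPM (47 UMIs). Lyve1 had a log2 ratio of 0.79 (0.37 to 1.23). It was 1.23 (0.59 to 1.92) in the unnamed cells. Named classes ran from -0.04 in cycling-like to 1.08 (-0.14 to 2.52) in stem-like cells, each with an interval that included 0. Angpt2 had 36 and 71 UMIs (-0.18), and Nrp2 11 and 28 (0.18). Of the pathway list, 19 genes could be counted, with 1 higher (Nrp1, 14 and 117 UMIs, log2 ratio 1.90) and 6 lower. Among the lower ones Calcrl (-2.80) and Ramp2 (-3.34) encode the adrenomedullin receptor, and Sox18, an endothelial transcription factor, had 24 UMIs in the control and 0 in the cocultured library. General endothelial markers moved the same way: Cdh5 had 22 and 0 UMIs, Pecam1 52 and 24 (-2.28), Tie1 46 and 20 (-2.37), Flt1 9 and 0 and Kdr 7 and 0. Their part in the values of the list was not tested.

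**Figure D4:**
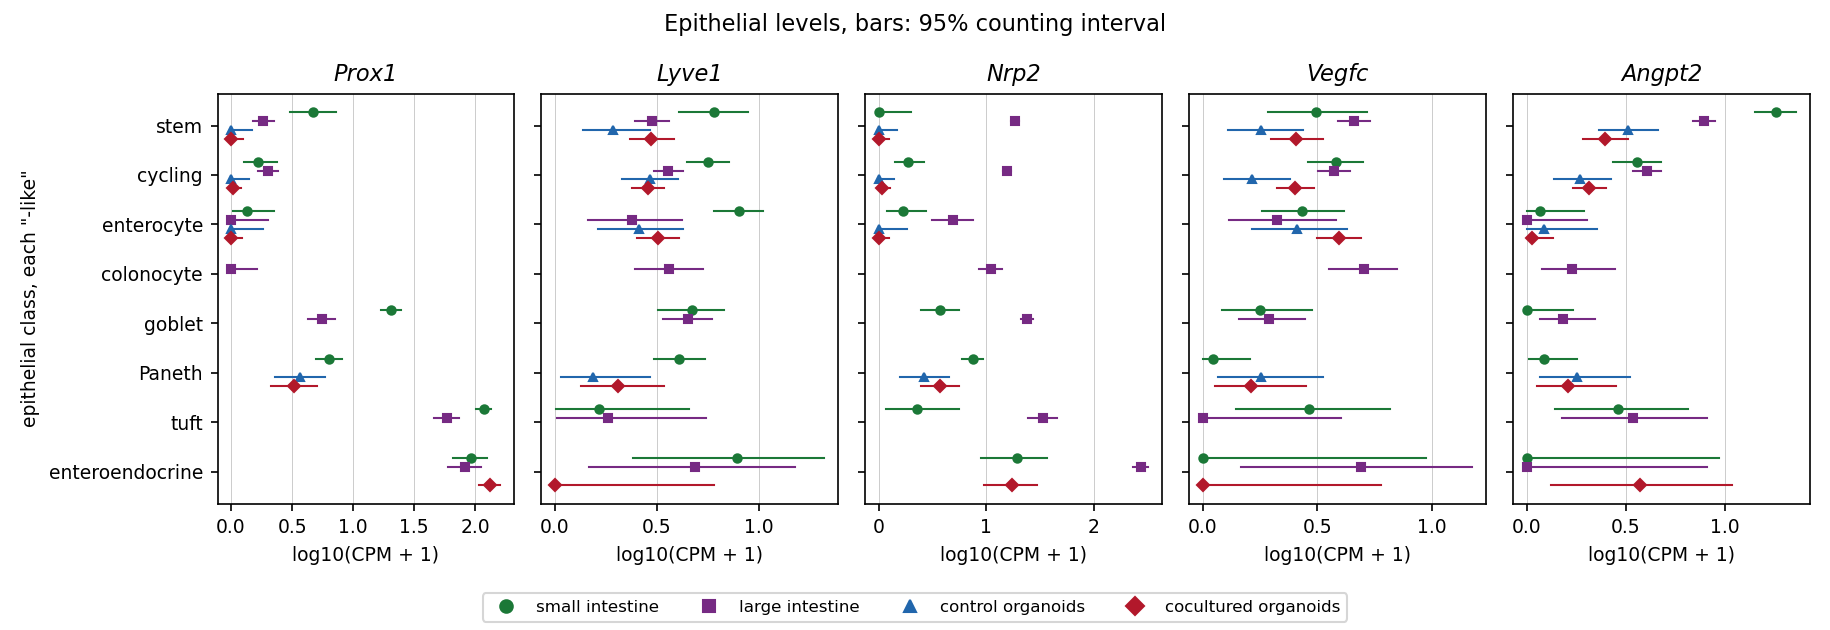
log10(CPM + 1) of Prox1, Lyve1, Nrp2, Vegfc and Angpt2 (x axes) in each epithelial class (y axis) of both tissues and both organoid libraries, for classes of at least 20 cells, with 95% counting intervals. Prox1 is highest in tuft-like and enteroendocrine-like cells, Nrp2 lies further right in large than in small intestinal classes, and the scales of the other genes are short.

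The Visium sections sample whole tissue, without a sort. In bulk and in spots, fewer cells of a type and less RNA per cell cannot be told apart. Of the 10 members, 1 was at least 2-fold higher and 1 lower in small than in large intestine when the nearest sections were compared, where 11.1% of genes were higher and 10.2% lower. Prox1 had 3.28 and 3.52 CPM in the small intestinal sections against 1.21 and 0.890 CPM in the others, a pooled log2 ratio of 1.71 with 1.44 between the nearest sections. Vegfc had 2.22 and 1.99 CPM against 4.80 and 5.02 CPM, a log2 ratio of -1.23 with -1.11 between the nearest sections. The call itself requires that the sections of the tissues do not overlap, so their separation for these genes adds nothing to it.

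Flt4 had 7.35 and 7.21 CPM in small against 3.98 and 3.83 CPM in large intestinal sections (log2 ratio 0.90), just short of 2-fold. Lyve1 had 4.52 and 5.05 CPM against 10.4 and 9.56 CPM (-1.05), and its nearest sections were at -0.92. Mmrn1 had 12.4 and 13.9 CPM against 16.1 and 13.5 CPM, and its sections overlapped. Lyve1 and Flt4 thus differed between the tissues in opposite directions while Mmrn1 overlapped. Nrp2 had 40.2 and 59.8 CPM against 30.1 and 27.2 CPM, and Pdpn 11.0 and 11.5 CPM against 14.8 and 13.7 CPM. Angpt2 had 2.14 and 2.36 CPM against 1.99 and 1.53 CPM, and its log2 ratio of 0.37 in whole sections stood beside 2.07 in lymphatic-like cells. Tek (3.08 and 4.72 against 4.41 and 4.61 CPM) and Pkhd1l1 (5 and 17 against 23 and 13 UMIs) overlapped between tissues. Of the pathway list, 7 of 39 counted genes were higher in the small intestine (Vegfd, Pgf, Ccbe1, Maf, Gja1, Adm and Clec1b) and 2 lower (Ccl21a and Cd9). Among ligands, Vegfd had 5.09 and 7.24 CPM in small against 1.48 and 1.71 CPM in large intestinal sections, the reverse of Vegfc. Ccbe1, which encodes a protein needed to activate VEGF-C, had 2.46 and 3.16 CPM against 0.436 and 0.616 CPM.

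Spots were then split by a UMI of the lymphatic markers Ccl21a or Reln after thinning to 2000 UMIs. Such spots numbered 281 and 305 in the large and 128 and 138 in the small intestinal sections. A spot covers several cells. In the small intestine 4 of 8 members counted (Lyve1, Mmrn1, Flt4 and Tek) were at least 2-fold higher per spot in both sections, where 2.65% of genes were. For the large intestine 6 of 7 (Lyve1, Mmrn1, Flt4, Nrp2, Vegfc and Tek) were, where 6.85% of genes were.

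Mmrn1 had 27.4 and 16.7 UMIs per 100 marked spots in the large intestinal sections, log2 ratios of 3.78 and 3.82 over the other spots, which had 1.18 in the second section. The small intestinal sections had 21.9 and 35.5 against 2.33 and 2.32, so the log2 ratios of the 4 sections ran from 3.23 to 3.94. Lyve1 had 13.2 and 11.5 against 1.77 and 2.15 in the large intestine. The small had 2.34 and 9.42 against 0.724 and 0.612, of which the first rests on 3 UMIs. Flt4 had log2 ratios of 3.10 and 2.87 in the large and 3.50 and 2.01 in the small intestinal sections. Nrp2 had lower ratios, of 1.63 and 1.33 in the large and 0.71 and 1.12 in the small intestine. Tek had log2 ratios from 1.47 to 1.91 in the 4 sections, on 3 to 10 UMIs in marked spots. In spots split by blood endothelial markers instead, the ratios of Tek were 2.07 and 0.64 in the large and 1.74 and 2.38 in the small intestinal sections, and those of Mmrn1 0.74 and 0.53, and 1.28 and 0.91. Vegfc in the large intestine had log2 ratios of 1.30 (-0.54 to 2.88) and 1.61 (0.35 to 2.77) on 5 and 10 UMIs. The small intestinal sections had 0 and 1 UMIs in marked spots. Vegfc had 0 UMIs in the sorted lymphatic-like cells of both tissues, as given above.

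Muscle-rich spots, those above their section's median for a fixed list of muscle genes, also had more of several members. That split marks more spots, 832 and 836 in the large intestine against 281 and 305 by Ccl21a or Reln. The ratios below thus come from unlike splits. Nrp2 had log2 ratios of 3.17 and 2.62 in the large and 2.17 and 3.60 in the small intestinal sections, above its ratios for lymphatic markers in each section. Mmrn1 had 4.30 and 3.91, and 1.59 and 2.04. Lyve1 had 3.15 and 3.37, and 1.98 and 3.06, and Flt4 had 3.65 and 3.41, and 3.23 and 1.67. In both large intestinal sections the ratios of these 3 genes too were above those for lymphatic markers, but with overlapping intervals. Their UMIs per spot went the other way, with 12.6 and 7.89 Mmrn1 UMIs per 100 muscle-rich spots against 27.4 and 16.7 per 100 marked spots. Epithelium-rich spots had less Mmrn1 in all 4 sections, with log2 ratios of -3.33 and -2.74 in the large and -1.66 and -3.15 in the small intestine. Spots with macrophage C1q genes had higher Lyve1 and Mmrn1. Lyve1 had log2 ratios of 1.12 and 1.80 in the large and of 1.78 and 1.04 in the small intestine, the last with an interval that included 0 (-0.19 to 2.23). The ratios of Mmrn1 were 1.46 and 1.06, and 1.62 and 1.70. Nrp2 had ratios from 0.64 to 1.05. These splits share spots and are not independent of each other.

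**Figure D5:**
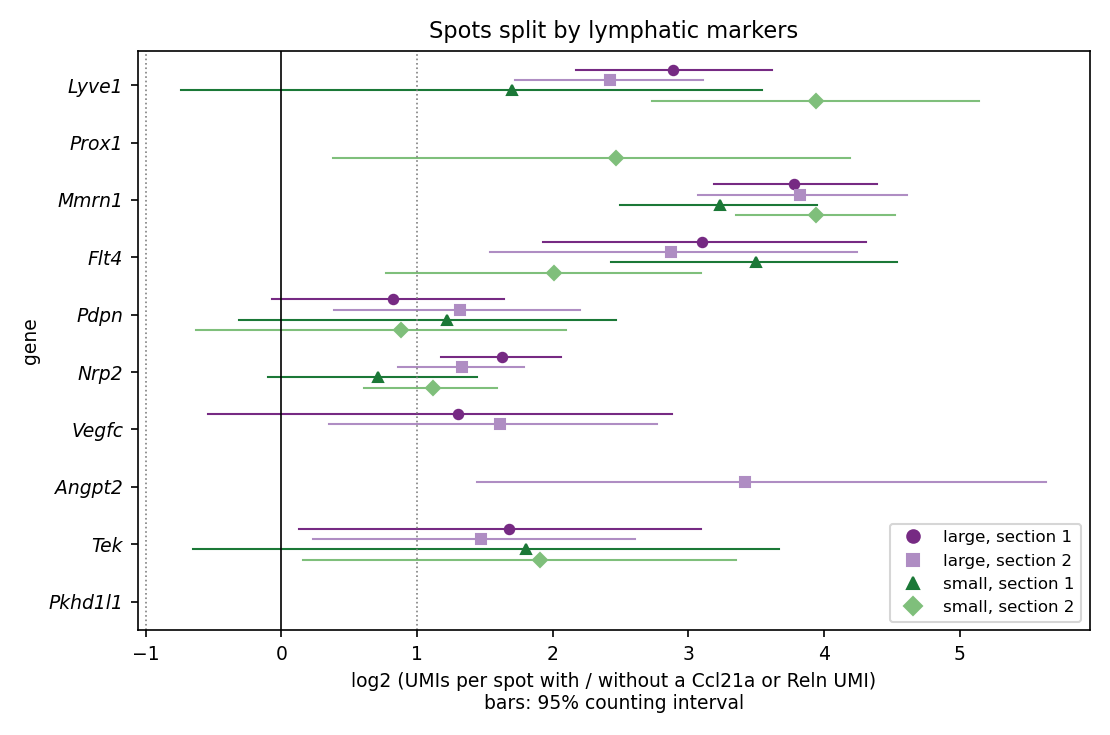
Log2 ratio of UMIs per spot, spots with over spots without a Ccl21a or Reln UMI (x axis), for each gene (y axis) in each of the 4 sections, with 95% counting intervals; dotted lines mark 2-fold, and genes with too few UMIs have no point. Mmrn1 lies between 3.23 and 3.94 in all 4 sections, and Nrp2 nearer to the dotted line.

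The genes with patterns most like each member were named by Pearson correlation of log2(CPM + 1) over the 31 classes of both tissues, which share libraries and differ in depth. Mmrn1 and Lyve1 were closest to each other (r = 0.929) and to Ccl21a, a marker that named the class (0.932 for Mmrn1 and 0.918 for Lyve1). The third gene was Tbx1, another such marker, for Mmrn1 (0.925) and Apba2 for Lyve1 (0.899). Flt4 was closest to Gpr182 (0.946), then to Klhl4 (0.930), a marker that named the class, and to Tie1 (0.928), a pan-endothelial receptor. Tek was closest to Fgd5 (0.941), Hspa12b (0.939) and Osmr (0.930). Vegfc was closest to Snai2 (0.918), Lims2 (0.917) and Sparcl1 (0.885), and its own correlation with Mmrn1 was -0.44. Pdpn was closest to Adamtsl1 (0.975), Rspo3 (0.961) and Pcsk6 (0.960). Prox1, found in both lymphatic-like and epithelial classes, had lower best values, with Efnb3 (0.781), F8 (0.755) and Tanc2 (0.742). Nrp2 was closest to Tshz2 (0.887), Cav2 (0.871) and Tmod2 (0.867). For Angpt2 the genes were Eva1a (0.838), Ptpn14 (0.816) and Dysf (0.799), and for Pkhd1l1 they were Nrcam (0.932), Gpm6a (0.884) and Tbx1 (0.867).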

How the data were processed

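The deposited matrices held UMI counts per gene and barcode, not normalized, made by the authors with Cell Ranger 6.0.1 (single cells) and Space Ranger 1.2.1 (Visium), per the file headers. The submitters' processing notes name the build mm10. The annotation release and the use of strand are not given in the sources used here. The labels do not name animals.

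Kept cells had 500 or more genes and no more than 20% of UMIs from mitochondrial genes, and the highest Scrublet scores were removed at 0.8% per 1000 cells. Clustering (scanpy 1.11.5, Python 3.11.15) used 2000 variable genes, 30 principal components, 15 neighbours and resolution 1, without the 10 genes. Clusters took names from 23 marker lists, with at least 3 markers each. Clusters led by markers of another class stayed unnamed, and colonocyte-like was not used in the small nor Paneth-like in the large intestine, a rule added after the clusters were seen. Classes under 20 cells were not compared.

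UMIs were summed per class and scaled to CPM, with exact Poisson intervals for levels, exact conditional intervals for ratios and Clopper-Pearson intervals for shares, all at 95% and for counting error only. Genes with at least 20 UMIs over both groups were counted, and 2-fold was the size named as higher or lower. A count under 3 was set to 3 in calls and medians, and no ratio was given where the higher side had under 3. Shares used cells thinned to 2000 UMIs (10000 in organoids). No p-value was computed, since each group had 1 library or technical duplicates. Scripts were tested on simulated data.

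The 10 members are always named. From the pathway list of 41 genes, Vegfa, Vegfd, Angpt1 and genes past 2-fold are named, of which 1 is not reported here, and by likeness the 3 closest genes of each member with at least 100 UMIs. Mcph1, Prox1os and Gm29083 are named as overlapping genes, and Cdh5 and Pecam1 as endothelial markers. Members and lists were chosen with earlier results of these data known. Leaving out cells with barcodes found in both tissue libraries was added after seeing the data.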

Additional observations from a re-analysis of the deposited data

How the results depend on the processing

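The 13 main results were each recomputed under 7 to 12 alternatives, which gave 127 values, of which 116 stayed within 1.5 times the main one. The counts of 7 and 7 members higher in lymphatic-like than in blood endothelial-like cells held under all 12 alternatives each, and the count of 1 member higher in small intestinal sections under all 9. Some alternatives could hardly differ. Resolutions 0.5 and 2 and clustering with the members left the endothelial-like classes at their main sizes. For marked spots a minimum of 1000 UMIs repeats the main result, since thinned spots already held 2000. For small against large intestinal lymphatic-like cells, the 1 member higher became 3 with doublets kept (Flt4, Nrp2 and Angpt2) and 2 with median-of-ratios scaling (Nrp2 and Angpt2), and the 1 lower became 2 with a loose cell filter (Pdpn and Pkhd1l1). In organoids, the mean of the CPM of each cell gave 2 members higher (Prox1 and Vegfc), and no minimum of UMIs gave 1 lower (Tek). In the sections, CPM without mitochondrial and ribosomal protein genes gave 2 members lower (Lyve1 and Vegfc), and leaving out each section in turn gave 1 to 2, with Lyve1 added without the second section of either tissue. In small intestinal marked spots a minimum of 50 UMIs left 2 (Mmrn1 and Flt4). The highest epithelial classes of Lyve1 and Prox1 matched the main result in 2 of 4 cases with the loose filter and in 1 of 4 with the members clustered. In those settings Lyve1 moved to enteroendocrine-like cells in the small and goblet-like cells in the large intestine, and with the members clustered Prox1 moved to tuft-like cells in the large intestine. Of single ratios, 398 stayed, 27 moved and 0 reversed a call. The causes were not tested. No paired analysis was possible because no test was run: each group had 1 library, and the numbered sections of a tissue were technical duplicates. Low counts widen the intervals in the 39 blood endothelial-like cells of the small intestine.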
